A study of Mus musculus with 1931 samples.

Results

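The interferon-induced transmembrane genes *Ifitm1*, *Ifitm2* and *Ifitm3* are described here across the compartments of Rosette-to-Lumen (RtL) embryoids and across 3 2D cultures. They are 3 of the 20999 genes in the expression table and were chosen by their mean level in each lineage of these same cells, so their levels are given as a description and no test was made on them. SMART-seq2 transcriptomes of single mouse cells were available from 1931 wells, of which 1406 held a cell with at least 2500 genes above 0. RtL-embryoids came from 1 pool, grown from Kermit ESCs with an *Oct3/4*-driven GFP, 5F-ESCs with DOX-inducible *Cdx2*, *Tfap2c*, *Eomes*, *Gata3* and *Ets2*, and mCherry-labelled iGATA6 ESCs with DOX-inducible *Gata6*, and transgenes were induced with 2 µg/ml DOX that was withdrawn a day before harvest. Cells sorted as GFP+ (Epi-like), mCherry+ (VE-like) and CD40+ (ExE-like) shared plates 3, 4 and 5, in well columns 1 to 8, 9 to 16 and 17 to 24. The ExE-like cells were divided by the trophoblast stem cell factor *Elf5* into those with a value above 0 and those at 0. The 2D cultures were ESCs in 2i/LIF (plate 7), iTSCs made from 5F-ESCs (plate 8) and iXEN cells made from iGATA6 ESCs (plate 9), the latter pair after the same DOX course. Every condition was 1 sample and the plates of the embryoid cells were technical splits, so values are given for each plate and no p-value is given.

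IFITM proteins are small membrane proteins of the CD225-domain family that hinder the fusion of enveloped viruses with endosomal and plasma membranes. *Ifitm3* (also named fragilis) and *Ifitm1* are long-standing marks of the mouse epiblast and of primordial germ cells, and pluripotent stem cells carry IFITM transcripts without added interferon. In most differentiated cells interferon-induced genes respond through short promoter motifs, the interferon-stimulated response element (ISRE) for type I interferon and the gamma-activated site (GAS) for interferon gamma.

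The 3 genes lie together on chromosome 7 (GRCm38, GENCODE vM21). *Ifitm2* spans chr7:140954837-140955987 on the minus strand, *Ifitm1* chr7:140967221-140969825 on the plus strand and *Ifitm3* chr7:141009586-141010770 on the minus strand, a stretch of 55.9 kb in all. *Ifitm2* and *Ifitm3* have 1 annotated transcript each and *Ifitm1* has 3. Since the genes are neighbours whose levels differed by lineage, the sequence before each RefSeq start (GRCm38.p6) is shown without annotated exons, 5′ to 3′ on the gene's strand, with an ISRE match in capitals. The windows are chr7:140967826-140968027 (plus strand) for *Ifitm1*, which lies in an intron of the longest *Ifitm1* transcript, chr7:140955988-140956211 (minus strand) for *Ifitm2* and chr7:141010771-141010994 (minus strand) for *Ifitm3*.
Ifitm1: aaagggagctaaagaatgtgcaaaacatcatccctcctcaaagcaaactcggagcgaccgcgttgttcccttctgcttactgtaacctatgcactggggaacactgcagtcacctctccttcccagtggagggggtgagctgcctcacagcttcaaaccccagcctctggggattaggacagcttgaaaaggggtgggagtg
Ifitm2: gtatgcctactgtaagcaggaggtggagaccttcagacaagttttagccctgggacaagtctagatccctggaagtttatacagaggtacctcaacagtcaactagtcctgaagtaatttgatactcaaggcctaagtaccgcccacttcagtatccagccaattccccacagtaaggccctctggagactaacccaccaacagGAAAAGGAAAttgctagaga
Ifitm3: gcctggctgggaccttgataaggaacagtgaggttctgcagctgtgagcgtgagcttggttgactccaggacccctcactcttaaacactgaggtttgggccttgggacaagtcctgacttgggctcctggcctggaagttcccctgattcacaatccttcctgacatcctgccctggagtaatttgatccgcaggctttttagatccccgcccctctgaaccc

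The ISRE was searched as GAAANNGAAA and the GAS as TTCNNNGAA, on both strands of the 250 bases before each start. *Ifitm2* held 1 ISRE match, at position -46 from its RefSeq start, a match that 2.97% of 32817 promoters had somewhere in the window. *Ifitm1* and *Ifitm3* held neither motif in these bases, and a GAS match was found in 7.01% of all promoters. These letters describe the window alone.

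Reads of such similar genes can be hard to place. Of the 31-base words in the annotated transcripts, which is the word length kallisto uses by default, 88.4% of those of *Ifitm1* and 79.5% of those of *Ifitm3* occurred in no other gene, and 44.5% of those of *Ifitm2*. Most of the shared words of *Ifitm2* lay in *Gm45717*, an annotated gene that overlaps it and is not a row of the table. *Ifitm1* and *Ifitm2* shared 10 words, *Ifitm1* and *Ifitm3* 35, and *Ifitm2* and *Ifitm3* 39. These words were counted in GENCODE vM21 and the authors used vM16, so whether reads of *Ifitm2* were assigned to *Gm45717* is not known, and the level of *Ifitm2* in particular is uncertain.

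The well columns, which the labels do not tie to a lineage, were checked with 6 markers per lineage. The Epi markers (*Pou5f1*, *Nanog*, *Gdf3*, *Tdgf1*, *Sox2*, *Utf1*) had the highest sum of the 3 lists in 99.7% of Epi-like cells, and the VE markers (*Amn*, *Cubn*, *Gata4*, *Sox17*, *Dkk1*, *Foxa2*) in 96.8% of VE-like cells. The ExE markers (*Cdx2*, *Elf5*, *Eomes*, *Tfap2c*, *Gata3*, *Hand1*) led in 88.2% of ExE-like cells with *Elf5* and in 57.7% of those without it, where VE markers led in 23.1% and Epi markers in 18.4%. Among iTSCs the Epi list led in 51.1%, with *Utf1* at a mean of 6.32 TP10k (each cell's values scaled to a sum of 10000), and the ExE list in 48.9%. *Pou5f1* was above 0 in 90.8% of VE-like cells, at a mean of 4.53 TP10k against 14.2 in Epi-like cells. Median genes per cell were 4823 in Epi-like, 5348 in VE-like and 5396 in ExE-like cells and 8537 to 9094 in the 2D cultures, and plate 3 was the richest plate of each sort. The summed level of 7 fibroblast markers was 0.00908 to 0.0478 TP10k across the groups, all close to 0.

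*Ifitm2* was the most abundant member in every group. Its mean was 27.3, 28.2 and 24.6 TP10k in Epi-like cells on plates 3, 4 and 5, and 20.96 in ESCs. ExE-like cells without *Elf5* had 15.2, 13.7 and 12.5 TP10k, those with *Elf5* had 11.02, 10.97 and 10.26, and iTSCs had 9.90. VE-like cells had 3.42, 2.91 and 2.87 TP10k and iXEN cells 1.72. The order was thus Epi-like, ESC, ExE-like without *Elf5*, ExE-like with *Elf5*, iTSC, VE-like and iXEN, and no neighbouring groups overlapped in their plate values. In Epi-like cells *Ifitm2* was 26th of 17124 genes by mean TP10k, a scale corrected for transcript length, and in VE-like cells it was 620th of 17129. It was above 0 in 99.4% of Epi-like cells (95% Clopper-Pearson interval 97.7 to 99.9%), 97.01% and 97.5% of ExE-like cells without and with *Elf5*, and 68.6% of VE-like cells (63.1 to 73.7%). All intervals cover the counting of cells only, within 1 sample. In the endoderm groups *Ifitm2* was thus detected in most cells, at a lower level than in the other groups.

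*Ifitm1* varied widely within the ExE-like compartment. Epi-like cells had a mean of 12.3, 11.6 and 10.02 TP10k on plates 3, 4 and 5, ExE-like cells without *Elf5* 14, 7.56 and 7.24, and ESCs 6.82. Epi-like cells and ExE-like cells without *Elf5* overlapped in their plate values, and ESCs lay below both. ExE-like cells with *Elf5* had 4.47, 1.34 and 4.27 TP10k, a range that held the iTSC mean of 1.85. VE-like cells had 0.0185, 0.204 and 0.00345 TP10k, a range that held the iXEN mean of 0.0309. *Ifitm1* was above 0 in 92.4% of Epi-like cells (88.8 to 95.04%) and 99.3% of ESCs, but in 66.7% (60.2 to 72.7%) and 36.1% (27.5 to 45.4%) of ExE-like cells without and with *Elf5*, 53.2% of iTSCs, 6.38% of iXEN cells and 1.90% of VE-like cells (0.702 to 4.10%). These last were 6 cells, and in 2 of them the Epi markers led, including the cell with the highest value of 913.7 TPM. In the other 4 cells *Ifitm1* was at most 47.3 TPM. In ExE-like cells without *Elf5* the quartiles were 0, 234.9 and 839.7 TPM and the highest cell had 5863 TPM, above the highest Epi-like cell (3955 TPM). The iTSC mean was likewise carried by few cells, with a median of 14.1 TPM and a highest value of 4536 TPM.

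*Ifitm3* was highest in ESCs, at a mean of 16.3 TP10k. Epi-like cells had 9.08, 10.4 and 7.92 TP10k on plates 3, 4 and 5, all below the ESCs, and iTSCs had 2.24. ExE-like cells without *Elf5* had 1.67, 1.03 and 0.970 TP10k, those with *Elf5* 0.697, 0.445 and 0.602, VE-like cells 0.123, 0.258 and 0.0751, and iXEN cells 0.0679. No plate values overlapped between neighbours in this order. *Ifitm3* was above 0 in 99.3% of ESCs, 94.9% of Epi-like cells (91.9 to 97.1%), 87.9% of iTSCs, 46.2% and 35.3% of ExE-like cells without and with *Elf5*, 19.9% of iXEN cells and 12.1% of VE-like cells. By mean TP10k it exceeded 99.7% of the genes above 0 in ESCs, 99.3% in Epi-like cells and 87.2% in ExE-like cells.

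**Figure D1:**
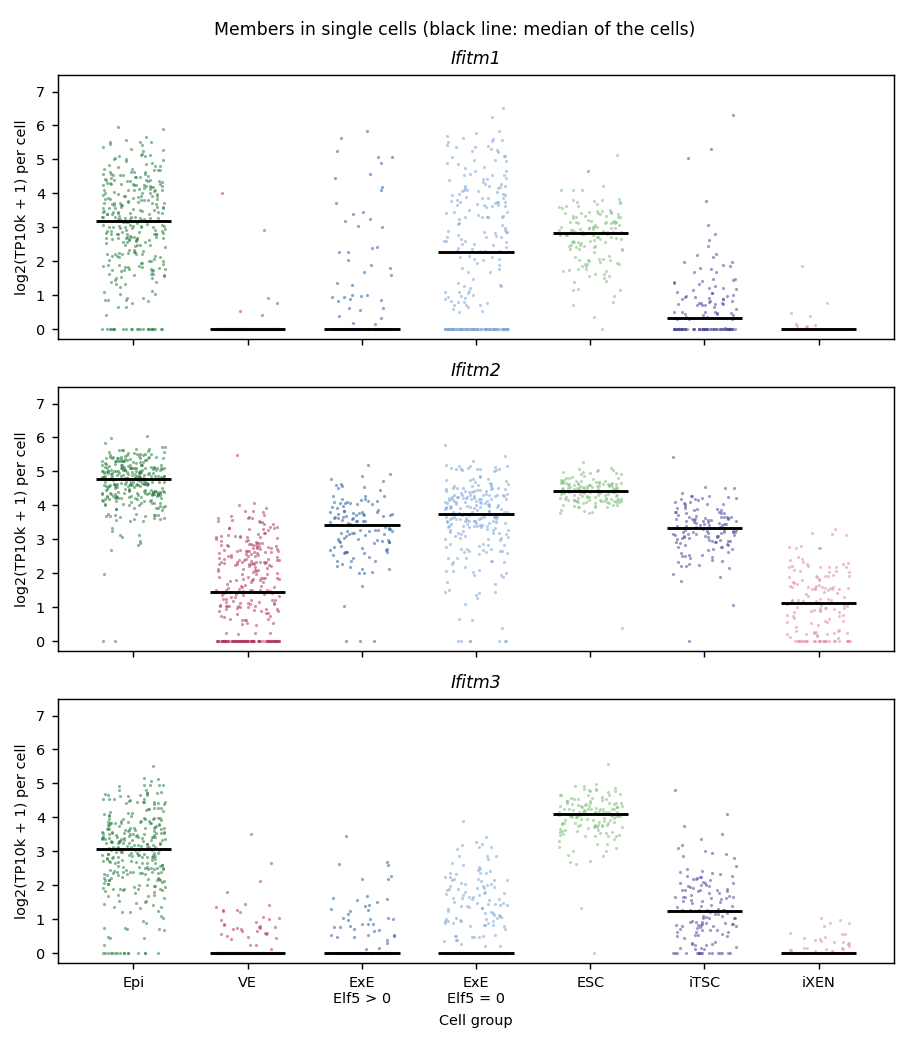
Level of each member in single cells as log2(TP10k + 1), by cell group, with each point a cell and the black line the median of the group's cells. *Ifitm2* was above 0 in nearly all cells outside the VE-like and iXEN groups, whereas *Ifitm1* spread from 0 to its highest values within the ExE-like cells without *Elf5*.

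**Figure D2:**
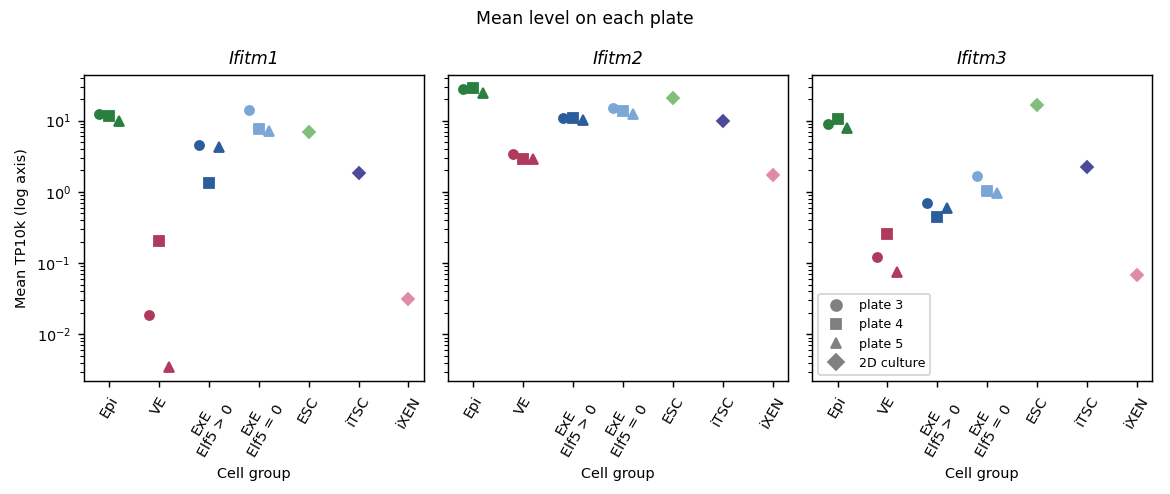
Mean TP10k of each member on a log axis, for each of plates 3, 4 and 5 of the embryoid cells and for each 2D culture. *Ifitm3* was the member with its highest mean in ESCs (16.3 TP10k), and all 3 members were lowest in VE-like and iXEN cells.

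The compartments were compared by the log2 ratio of their mean TP10k, over genes detected in 10% or more of the cells on at least 1 side of the comparison, and a gene was called where the means differed at least 2-fold and the same way on each plate. Between VE-like and Epi-like cells all 3 members were called lower in VE-like cells, where 16.3% of 10662 genes were called lower and 16.3% higher, a contrast that the choice of the members had used, so that nothing is read from the count. The log2 ratio of *Ifitm1* was -7.20 (-9.37, -5.83 and -11.50 on plates 3, 4 and 5), that of *Ifitm3* -5.89 (-6.20, -5.33 and -6.72) and that of *Ifitm2* -3.12 (-3.00, -3.28 and -3.10). The *Ifitm1* ratio was -10.50 when only cells led by their own lineage's markers were kept, and -9.92 without plate 4. On every plate the difference was thus largest for *Ifitm1* and smallest for *Ifitm2*.

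In ExE-like cells the members differed from each other. *Ifitm3* was 9.01-fold lower than in Epi-like cells (log2 ratio -3.17, on plates 3, 4 and 5 -2.77, -3.59 and -3.25) and *Ifitm2* 2.09-fold lower (-1.06, on the plates -0.99, -1.13 and -1.07), and both were called. *Ifitm1* was 1.49-fold lower (-0.58, on the plates -0.20, -1.01 and -0.71) and was not. Across 10886 genes 8.98% were called lower and 15.5% higher in ExE-like cells. For *Ifitm1*, whose level spread widely over cells, the difference of mean log2(TP10k + 1) was -1.28, and the log2 ratio was -1.07 when ExE-like cells with any VE marker were left out.

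Epi-like cells and the ESCs showed opposite directions for the members. *Ifitm1* was 1.65-fold higher in Epi-like cells (log2 ratio 0.73, on plates 3, 4 and 5 0.85, 0.77 and 0.56) and *Ifitm2* 1.27-fold higher (0.35, on the plates 0.38, 0.43 and 0.23). *Ifitm3* was 1.79-fold lower in Epi-like cells (-0.84, on the plates -0.85, -0.65 and -1.05). None of the 3 reached a 2-fold difference, while 11.1% of 13109 genes were called higher and 9.21% lower in Epi-like cells, with a median log2 ratio of 0.13 over the genes tested. In cells matched to 6000 to 9000 genes (33 Epi-like cells and 61 ESCs) the log2 ratios were 0.42, 0.16 and -0.85 for *Ifitm1*, *Ifitm2* and *Ifitm3*. The medium, the DOX, the co-culture, the 3D setting and the plate all differed between these samples and cannot be told apart.

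The extraembryonic compartments were set beside their 2D counterparts in the same way. *Ifitm1* was 4.08-fold higher in ExE-like cells than in iTSCs (log2 ratio 2.03, on plates 3, 4 and 5 2.52, 1.63 and 1.73), *Ifitm3* was 2.21-fold lower (-1.15, on the plates -0.76, -1.38 and -1.43), and *Ifitm2* differed by 1.29-fold (0.37, on the plates 0.47, 0.38 and 0.24). Thus 1 member was called in each direction, where 10.2% of 13012 genes were called higher and 14.5% lower. Between VE-like and iXEN cells 4.38% of 12248 genes were called higher and 8.92% lower. *Ifitm3* was called higher in VE-like cells (log2 ratio 1.18, on the plates 0.86, 1.93 and 0.15), with means of 0.154 and 0.0679 TP10k, and its ratio was -0.29 in the 29 VE-like cells with *Pou5f1* at 0. *Ifitm3* was above 0 in 12.1% of VE-like and 19.9% of iXEN cells, so the higher mean came from a smaller share of cells. *Ifitm2* was 1.79-fold higher in VE-like cells (0.84, on the plates 0.99, 0.76 and 0.74), and the *Ifitm1* ratio of 1.31 turned to -1.43 without plate 4. For *Ifitm1* the direction between these endoderm groups thus rested on plate 4. In both comparisons the medium, the co-culture, the 3D setting, the plate and the genes per cell differed and cannot be told apart.

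The number of members detected in a single cell also differed between the groups. All 3 members were above 0 in 99.3% of ESCs, 89.2% of Epi-like cells, 50.4% of iTSCs, 37.6% and 19.3% of ExE-like cells without and with *Elf5*, 2.13% of iXEN cells and 0.952% of VE-like cells. None was above 0 in 29.5% of VE-like and 17.02% of iXEN cells. Where a cell had a single member it was nearly always *Ifitm2*, which stood alone in 57.5% of VE-like cells, 58.9% of iXEN cells and 46.2% of ExE-like cells with *Elf5*. *Ifitm1* and *Ifitm3* without *Ifitm2* were seen together in 0% of the cells of every group, which allows a share of up to 0.952% in VE-like cells and 2.52% in ExE-like cells with *Elf5* (3 cells of the total). The pairs that remained differed between the trophoblast groups: *Ifitm1* with *Ifitm2* made up 29.1% of ExE-like cells without *Elf5* and 2.84% of iTSCs, and *Ifitm2* with *Ifitm3* 8.12% and 36.9%. In ExE-like cells with *Elf5* each of these pairs made up 15.97%. These shares also depend on depth, which was greater in the 2D cells.

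The make-up of the summed members differed between the lineages. *Ifitm2* gave 93.02% of the summed mean TP10k in VE-like and 94.6% in iXEN cells, against 56.7% in Epi-like cells and 47.5% in ESCs. *Ifitm3* gave 37.02% of the sum in ESCs, 19.4% in Epi-like cells, 16.03% in iTSCs and less in the other groups, the highest of these being 4.97% in ExE-like cells without *Elf5*. *Ifitm1* gave its largest part, 39.01%, in those same ExE-like cells, and 55 of these cells (23.5%) had more *Ifitm1* than *Ifitm2*. The correlation of the members over cells differed between groups. In Epi-like cells Pearson's r of log2(TP10k + 1) was 0.40 for *Ifitm1* with *Ifitm2*, 0.49 for *Ifitm1* with *Ifitm3* and 0.37 for *Ifitm2* with *Ifitm3* (cells of 1 pool), and in ESCs 0.40, 0.38 and 0.23 (cells of 1 culture). For *Ifitm1* with *Ifitm3* r was 0.61 in VE-like cells, where it ranged from -0.03 to 0.79 over plates and *Ifitm1* was above 0 in 6 cells, and 0.01 in iXEN cells. These are descriptions over cells that share a pool or a culture, and reads shared between the genes enter them.

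**Figure D3:**
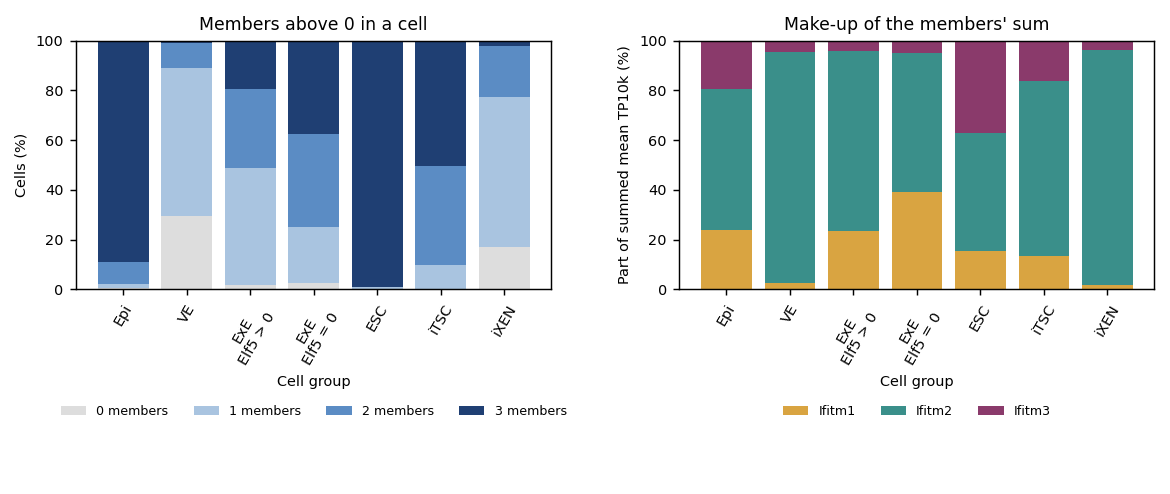
Left, percentage of cells with 0, 1, 2 or 3 members above 0 in each group; right, the part of the summed mean TP10k that each member gave. VE-like and iXEN cells mostly had *Ifitm2* alone, and the *Ifitm3* part was largest in ESCs (37.02%).

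Within the Epi-like cells, *Ifitm1* and *Ifitm3* were higher in cells with *Tfap2c*, a germ cell and trophoblast factor that is no transgene of the Kermit line. *Tfap2c* was also above 0 in 87.3% of the ESCs, so it does not by itself mark germ-cell-like cells here. In cells with *Tfap2c* above 0 the mean of *Ifitm1* was 17.4, 22.1 and 11.6 TP10k on plates 3, 4 and 5, and in cells at 0 it was 8.14, 6.71 and 8.83. *Ifitm3* was 11.45, 15.5 and 9.78 TP10k against 7.18, 8.00 and 6.54, so that for both genes no plate value of the cells at 0 reached those of the cells above 0. *Ifitm2* was at 27.04 against 26.5 TP10k over all plates, with plate 5 in the opposite direction. Both subsets had like numbers of genes per cell, with medians of 4854 and 4822. The 28 cells with the germ cell gene *Nanos3* above 0 had 15.04, 23.7 and 13.9 TP10k of *Ifitm1* against 11.8, 10.6 and 9.75 in the cells at 0, and 10.02, 19.4 and 9.05 TP10k of *Ifitm3* against 8.94, 9.66 and 7.83, with the largest difference on plate 4. A split by *Otx2*, a factor of the post-implantation epiblast, gave log2 ratios of -0.26 for *Ifitm1* and 0.26 for *Ifitm3* whose sign differed between plates, and 0.13 for *Ifitm2*.

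Within the ExE-like cells, *Ifitm1* was lower where *Elf5* or *Hand1* was present and higher where *Cdx2* was. *Elf5* and *Hand1*, factors of the trophoblast stem cell and of its differentiated progeny, are no transgenes of the 5F line, whereas *Cdx2*, *Eomes*, *Tfap2c* and *Gata3* transcripts include any that the transgenes gave. The 96 cells with *Hand1* had a mean *Ifitm1* of 0.927 TP10k against 10.05 in the cells without it, a log2 ratio (without over with) of 3.44 and of 3.12, 3.6 and 3.84 on plates 3, 4 and 5. The corresponding ratio for *Elf5* was 1.46 (1.65, 2.5 and 0.76 on the plates), and *Elf5* was the gene by which the compartment had been divided. Cells without *Cdx2* had 2.77 TP10k of *Ifitm1* against 10.6 in the cells with it, a log2 ratio of -1.93 (-2.12, -1.85 and -1.52). The division by *Eomes* gave -0.22 with a sign that differed between plates (-0.25, -0.69 and 0.34). The ratio was 0.30 for *Tfap2c* (0.43, 0.41 and 0.59) and -0.16 for *Gata3*, where the sign differed between plates (0.22, -0.38 and -0.05). *Hand1* was above 0 in 56.3% of ExE-like cells with *Elf5* and 12.4% of those without, so the divisions by these genes overlap. The *Ifitm1* difference therefore depended on which trophoblast marker divided the cells.

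For *Hand1*, *Elf5* and *Cdx2* the ratio of *Ifitm3* had the sign of the *Ifitm1* ratio, and the *Ifitm2* ratio was smaller. The log2 ratio (without over with the marker) of *Ifitm3* was 1.51 for *Hand1* (1.46, 1.6 and 1.44 on plates 3, 4 and 5), 1.05 for *Elf5* (1.26, 1.21 and 0.69) and -1.21 for *Cdx2* (-0.60, -1.92 and -1.02). For *Ifitm2* it was 0.48, 0.37 and -0.24. In the division by *Elf5*, *Ifitm1* and *Ifitm3* were called higher in cells without it, where 6.53% of 10899 genes were called higher and 3.73% lower. Cells with *Elf5* had more genes above 0 (median 5810) than those without (5211), as had cells with *Cdx2* (5655 against 4928). In cells with 6000 to 9000 genes the ratios for *Elf5* were 1.24 for *Ifitm1* and 1.23 for *Ifitm3*. Among cells led by ExE markers the mean of *Ifitm1* was 16.3, 10.01 and 8.76 TP10k on plates 3, 4 and 5 without *Elf5*, against 2.91, 1.38 and 4.70 with it. *Elf5* is itself in the ExE list, so cells without it were led through the other markers, *Cdx2* among them. This selection is therefore no separate check of the *Elf5* difference.

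**Figure D4:**
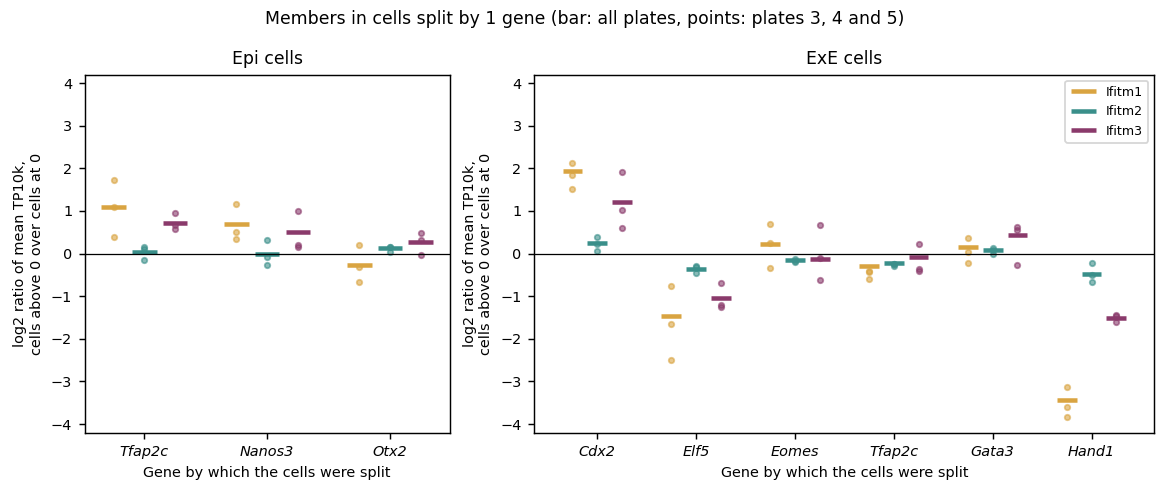
Log2 ratio of the mean TP10k in cells with a gene above 0 over cells with it at 0, for Epi-like cells (left) and ExE-like cells (right), with bars for all plates and points for plates 3, 4 and 5. *Ifitm1* and *Ifitm3* were higher in Epi-like cells with *Tfap2c* and in ExE-like cells with *Cdx2*, and lower in ExE-like cells with *Elf5* or *Hand1*.

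ExE-like cells led by another lineage's markers did not have that lineage's member levels. In the 61 cells led by VE markers, *Ifitm1* was above 0 in 59.02% and *Ifitm2* averaged 12.5 TP10k, against 1.90% and 3.08 TP10k in the VE-like wells. In the 50 cells led by Epi markers, *Ifitm3* averaged 1.10 TP10k, against 9.13 in the Epi-like wells. For comparison, ExE-like cells led by ExE markers had 12.5 TP10k of *Ifitm2* and 1.06 of *Ifitm3*. In VE-like cells a division by *Nodal* or *Lefty1*, Nodal-pathway genes of the anterior visceral endoderm, left *Ifitm1* above 0 in 3.797% of the cells with either gene and 1.27% of the others, and *Ifitm3* in 10.1% and 12.7%. The mean of *Ifitm3* had the opposite order, at 0.209 against 0.136 TP10k, and *Ifitm2* was at 5.13, 4.13 and 1.71 against 2.75, 2.54 and 3.24 TP10k on plates 3, 4 and 5, so that its order differed between plates.

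The other CD225-domain genes were close to 0. *Ifitm5*, *Ifitm6*, *Ifitm7*, *Ifitm10*, *Prrt2* and *Tmem233* were in the table and *Trarg1* was not, and their summed level was 0.0295 to 0.136 TP10k across the groups, with the highest sum in ESCs. *Ifitm5*, the bone-restricted member whose gene is next to *Ifitm2*, had 0.0558 TP10k in Epi-like cells and was above 0 in 5.10% of them and in 19.01% of ESCs. The high levels were thus confined, among the 9 family genes in the table, to *Ifitm1*, *Ifitm2* and *Ifitm3*.

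The neighbours on the chromosome were low in all groups. Of the 5 annotated genes on either side of the cluster, *Nlrp6*, *Pgghg*, *Ifitm5*, *Ifitm6*, *B4galnt4* and *Pkp3* were in the table, and none exceeded 0.290 TP10k in any group. *Pgghg*, beyond *Ifitm5*, had 0.157 TP10k in Epi-like and 0.113 in VE-like cells. *Pkp3*, a desmosome gene, had 0.201 and 0.183 TP10k. At these low levels *B4galnt4* and *Ifitm5* were, like the members, higher in Epi-like cells and ESCs than in the endoderm groups. *B4galnt4*, a glycosyltransferase gene, was at 0.210 TP10k in Epi-like cells and 0.290 in ESCs against 0.00947 in VE-like and 0.00599 in iXEN cells, and *Ifitm5* was at 0.0558 and 0.0400 TP10k against 0.00126 and 0.000366.

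Few interferon-stimulated genes could be compared between Epi-like and VE-like cells. Among 20 interferon-stimulated genes, 3 passed the 10% filter in the comparison of VE-like with Epi-like cells and 0 were called in either direction. Over all genes 16.3% were called lower and 16.3% higher, so a count over 3 genes tells little about the list. Under the filter, *Ifi35* was lower in VE-like cells (0.000509 against 0.0642 TP10k) and *Isg15* higher (0.0175 against 0.0038). The summed level of all 20 was 2.47 TP10k in Epi-like and 2.75 in VE-like cells, against 47.1 and 3.31 for the summed members. Most of the sum came from *Bst2*, the tetherin gene, at 1.39 TP10k in Epi-like and 1.85 in VE-like cells. *Isg15*, *Ifit1*, *Ifit3*, *Mx1* and *Rsad2*, classical antiviral genes, were each under 0.1 TP10k in every group, the highest being *Isg15* at 0.0906 in ExE-like cells with *Elf5*. The levels of the members in Epi-like cells were thus far above those of these genes.

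Between Epi-like cells and ESCs most interferon-stimulated genes that were called lower in Epi-like cells passed the filter through the ESCs alone. Of 20 interferon-stimulated genes 13 passed the filter, and 10 were called lower and 0 higher in Epi-like cells. Of those called lower only *Xaf1* was above 0 in 10% or more of Epi-like cells (52.2%), so the filter favoured a lower call. *Bst2* and *Ddx58*, which also passed on both sides, had log2 ratios of 0.62 and 0.385 and were not called. Over all 13109 genes tested 9.21% were called lower and 11.1% higher. The median log2 ratio, which holds the same selection, was -1.50 for the list against 0.13 over all genes tested. *Ifi27* had 2.15 TP10k in ESCs and was at 0 in all Epi-like cells, which allows detection in up to 0.955% of them. *Oas1a*, an oligoadenylate synthase gene, had 0.802 against 0.0238 TP10k, and *Xaf1* 1.48 against 0.559. Of 15 receptor and signalling genes 6 were called lower, among them *Irf9* (0.416 TP10k in ESCs and 0.149 in Epi-like cells) and *Socs3* (0.689 and 0.0609), and the receptor gene *Ifngr1* was called higher. ESC cells had more genes per cell, and the part of depth in these counts was not tested.

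In ExE-like cells, where *Ifitm2* and *Ifitm3* were lower, antigen presentation genes were higher. Relative to Epi-like cells, 7 of the 8 antigen presentation genes in the table passed the filter and all 7 were called higher, with a median log2 ratio of 3.10 against 0.10 over all genes tested and 15.5% of all genes called higher. Of these, *H2-K1*, *H2-D1*, *B2m* and *Tapbp* passed on both sides, and *Tap1*, *Tap2* and *Psmb8* passed through ExE-like cells alone. *B2m*, the light chain of class I molecules, had 5.64 TP10k in ExE-like cells against 0.436 in the Epi-like sort, and *H2-K1* 5.20 and 0.604. Of 14 receptor and signalling genes that passed 7 were called higher and 0 lower, including *Ifnar2* (0.620 and 0.0654 TP10k) and *Jak1* (1.78 and 0.381), and of 5 interferon regulatory factors *Irf2* and *Irf7* were called higher. Of the interferon-stimulated genes 3 of 6 that passed the filter were called higher. They were *Ifi35* (0.684 and 0.0642 TP10k), *Parp9* (0.171 and 0.0320) and *Parp14* (0.0189 and 0.00164). These passed through ExE-like cells alone, as did *Ifnar2*, *Il10rb*, *Socs1*, *Socs3*, *Irf2* and *Irf7*, which favours a higher call. *Bst2*, *Ddx58* and *Xaf1* passed on both sides and were not called, with log2 ratios of -0.16, -0.71 and -0.56. VE-like cells had the lowest members of the embryoid compartments. Of 5 antigen presentation genes that passed there, 2 were called higher than in Epi-like cells and 0 lower, where 16.3% of all genes were called higher. They were *B2m* (4.78 TP10k) and *H2-D1* (1.04 against 0.289). Of 4 interferon regulatory factors that passed, *Irf1* was called lower (0.0371 against 0.323) and *Irf2* higher (0.055 against 0.0038). Each passed through its higher side alone.

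**Figure D5:**
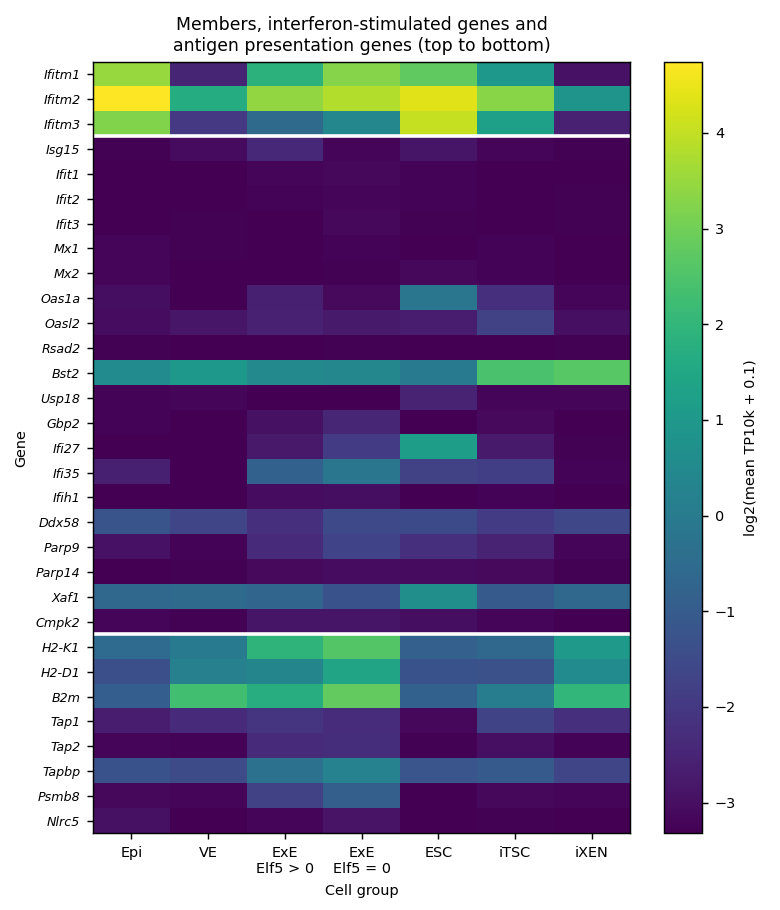
Mean level of the 3 members, 20 interferon-stimulated genes and 8 antigen presentation genes in each group, as log2(mean TP10k + 0.1). The members were bright in Epi-like cells and ESCs, most interferon-stimulated genes were dark in all groups, and *H2-K1* and *B2m* were brightest in ExE-like cells without *Elf5*.

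Between ExE-like cells without and with *Elf5* a minority of the pathway genes were called. Compared with cells with *Elf5*, 3 of 7 antigen presentation genes that passed the filter were called higher (*H2-D1*, *B2m* and *Psmb8*) and 0 lower, 3 of 8 interferon-stimulated genes were called higher (*Gbp2*, *Ddx58* and *Parp9*) and *Oas1a* lower, and 1 of 14 receptor and signalling genes was called higher (*Il10rb*). Among these, *Gbp2* and *Oas1a* passed through their higher side alone. Of 5 interferon regulatory factor genes 2 were called higher, with a median log2 ratio of 1.01. Over all genes 6.53% were called higher, and the medians of the log2 ratios were 0.67 for the antigen presentation genes, 0.67 for the interferon-stimulated genes and 0.55 for the receptor list against 0.05 over all genes tested. VE markers were higher in the same cells, with 3 of 4 that passed the filter called (*Gata4*, *Dkk1* and *Foxa2*), and they led in 23.1% of cells without *Elf5* against 5.88% of those with it, and their part in the list differences was not tested. Relative to iTSCs, 6 of 7 antigen presentation genes were called higher in ExE-like cells and 0 lower, with a median log2 ratio of 2.56 against 0.02 over all genes tested and 10.2% of all genes called higher. Of 12 interferon-stimulated genes 5 were called higher and 3 lower in that comparison, the latter being *Bst2* (-2.07), *Oas1a* (-1.86) and *Oasl2* (-1.83). Of those called lower, *Oas1a* and *Oasl2* passed through the iTSCs alone. The VE markers also had higher means in ExE-like cells than in iTSCs. Of 5 that passed the filter 5 were called, with a median log2 ratio of 5.27. *Amn*, *Cubn* and *Dkk1* were nevertheless above 0 in a smaller share of ExE-like cells (12.46%, 7.65% and 9.35%) than of iTSCs (43.97%, 13.48% and 17.02%). *Cubn* and *Dkk1* passed through the iTSCs alone. For *Gata4* and *Foxa2* the share was larger in ExE-like cells. The part of the VE markers in the list counts was not tested.

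Of 5 primordial germ cell genes that passed the filter, *Prdm1*, *Prdm14*, *Tfap2c* and *Dppa3* were called lower in VE-like than in Epi-like cells. Each passed through its Epi-like side alone, which favours a lower call. *Kit* passed on both sides, had a log2 ratio of 0.048 and was not called. Among all genes tested 16.3% were called lower. The median log2 ratio, which holds the same selection, was -4.98 for the list against -0.07 over all genes tested. *Dppa3* had 1.96 TP10k in Epi-like cells, 0.342 in ESCs and 0.00813 in VE-like cells, and *Prdm14* had 0.114, 0.455 and 0.00105. Of 4 genes whose proteins act with IFITM proteins, the protease gene *Zmpste24* was lower in Epi-like cells, at 0.264 TP10k against 0.681 in VE-like and 0.769 in ExE-like cells. *Vapa*, *Cd81* and *Cd9* were above 0 in most cells of each group, and *Cd9* was called higher in VE-like cells (9.02 against 4.47 TP10k).

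The genes most alike in pattern were sought by Pearson's r of the mean log2(TP10k + 1) over 15 points, which were 4 embryoid groups on each of 3 plates and 3 2D cultures, among 11971 genes. Points from the same pool are not independent, so r is a description. For *Ifitm1* the closest was *Apela*, the gene of the peptide hormone ELABELA, with r of 0.97, followed by *Csad*, *Mex3a*, *Tpd52l1* and *Sod1* (0.95 each). *Apela* had 1.41 TP10k in Epi-like cells, 1.62 in ExE-like cells without *Elf5*, 0.520 in those with it and 0.113 in VE-like cells. For *Ifitm2* they were *Gpx7* (0.96), *H2afv* (0.96), *Prdx1* (0.96), *Cdca7* (0.95) and *Csad* (0.95), of which *Prdx1* encodes a peroxidase. For *Ifitm3* they were *Igfbp2* (0.99), *Krt42*, *Bicral*, *Helb* and *Gsta4* (0.98 each). *Igfbp2*, a binding protein of insulin-like growth factors, had 14.3 TP10k in ESCs, 8.29 in Epi-like cells and 0.138 in VE-like cells. The members were less alike to each other than to these genes, with r of 0.91 for *Ifitm1* and *Ifitm2*, 0.82 for *Ifitm1* and *Ifitm3* and 0.80 for *Ifitm2* and *Ifitm3*.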

How the data were processed

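Single-cell SMART-seq2 libraries (75-base single reads) of mouse cells were made by the authors, who pseudoaligned reads to Gencode vM16 transcripts (GRCm38) by kallisto, left out mitochondrial, ribosomal and pseudogenes and deposited TPM per gene, so the deposited TPM keep no read depth and genes above 0 per cell stand for it. Of 1931 wells, 39 hold no values. A minimum of 2500 genes above 0 left 314 Epi-like, 315 VE-like and 353 ExE-like cells (119 with and 234 without *Elf5*), 142 ESCs, 141 iTSCs and 141 iXEN cells. *Tfap2c* was above 0 in 124 Epi-like cells, and *Hand1* and *Cdx2* in 96 and 217 ExE-like cells. Values were scaled to a sum of 10000 (TP10k). The sort columns follow the rule for the members and were checked by markers. Means, shares above 0 with Clopper-Pearson intervals (level 95%), and log2 ratios of means were computed per group and plate in Python 3.11.15 with pandas 2.3.3, numpy 2.4.6, scipy 1.17.1 and matplotlib 3.10.9, and fold calls and pattern likeness were tested on simulated data. With 1 sample per condition no test across samples was made. The members and gene lists were chosen with earlier results of these data known. Text names the members, their family, listed genes, the 5 most alike genes and 5 neighbours on either side. Alternatives covered depth, scale, averaging, sorts, splits and plates, and those on *Pou5f1*, VE markers, other ExE markers and Epi-like subsets were chosen after seeing the data. Protein sequences were not used here. Values of 1 listed signalling gene are not reported here.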

Additional observations from a re-analysis of the deposited data

How the results depend on the processing

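Of the alternative values of the 18 log2 ratios, 44 lay outside the spread over plates in the same direction, 5 had the opposite direction and all others stayed within that spread. The 5 were *Ifitm1* between VE-like and iXEN cells (-1.98 with cells led by their own markers, -0.036 as a difference of mean log2(TP10k + 0.1), -1.43 without plate 4), *Ifitm3* between the same groups (-0.29 in VE-like cells with *Pou5f1* at 0) and *Ifitm1* in the ExE-like division (-0.22 by *Eomes*, where *Ifitm2* was 0.16 and *Ifitm3* 0.12). The cause was not tested. Values below are in the order of *Ifitm1*, *Ifitm2* and *Ifitm3* where they lay outside the spread.

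As differences of mean log2(TP10k + 1), VE-like against Epi-like cells gave -2.99 (*Ifitm1*) and -2.80 (*Ifitm3*), ExE-like against Epi-like cells -1.28, -1.19 and -2.27, the *Elf5* division 0.24 (*Ifitm2*) and 0.33 (*Ifitm3*), Epi-like cells against ESCs 0.28 (*Ifitm1*) and -1.085 (*Ifitm3*), VE-like against iXEN cells 0.31 (*Ifitm2*) and 0.041 (*Ifitm3*), and ExE-like cells against iTSCs 1.045, 0.17 and -0.68. With 0.1 added in place of 1 the same comparisons gave -4.47 (*Ifitm2*), then -2.47, -1.36 and -4.10, then 2.35, 0.225 and 0.72, then 0.11 (*Ifitm1*) and -1.365 (*Ifitm3*), then 0.23 (*Ifitm2*) and 0.024 (*Ifitm3*), and then 1.45, 0.10 and -1.82. An average of logs weights cells at 0 more than a mean does.

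In cells with 6000 to 9000 genes, *Ifitm2* was -2.715 between VE-like and Epi-like cells, 0.22 in the *Elf5* division, 0.16 between Epi-like cells and ESCs, 1.161 between VE-like and iXEN cells and 0.21 between ExE-like cells and iTSCs, and *Ifitm1* was -0.13 between ExE-like and Epi-like cells and 0.42 between Epi-like cells and ESCs. With cells led by their own markers, *Ifitm1* was -10.50 between VE-like and Epi-like cells. With TPM as deposited, *Ifitm2* was 0.55 between ExE-like cells and iTSCs and 0.015 in place of -0.02 in the *Nanos3* division of Epi-like cells. Alternatives chosen after seeing the data gave, for VE-like cells with *Pou5f1* at 0, -3.70 (*Ifitm2*) and -7.36 (*Ifitm3*) against Epi-like cells and 0.26 (*Ifitm2*) against iXEN cells, and, for ExE-like cells with no VE marker, -1.07 and 1.53 for *Ifitm1* against Epi-like cells and iTSCs. TPM keep no read depth, so a value of 0 in a cell with few genes may be a missed transcript.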
